A study of Mus musculus with 11 samples.

Results

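The cell cycle and DNA replication genes are a set of 54 genes chosen by symbol, with earlier results of these data known. Of these, 51 were measured, by 70 of the 12422 probe sets of the array and among 8251 genes with a symbol of their own. They fall into 17 replication genes, 20 mitosis genes and 14 regulators of the G1 phase. A gene with several probe sets is described by the one that was brightest on average, and the others are given for some genes only. The thymidylate synthase gene Tyms is represented only by probe sets that also carry its pseudogene, and no probe set used here carries Ccnb1 or Bub1b alone, so these 3 genes were not analysed here.

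RNA came from whole mammary glands of Balb/c mice at 8 weeks after transplantation, with 5 samples of PN1a lesions and 6 of PN1b lesions. Both are lines of p53-/- mammary epithelium, each begun from a single outgrowth, on opposite sides of 1 mouse, and carried on by serial transplantation. The recipients were wildtype females of 3 weeks of age whose fat pads had been cleared of their own epithelium, so the stroma, vessels and immune cells of every sample carried wildtype p53. PN1a is the line with the high tumor-forming potential and PN1b the line with the low one, and the comparison asks which transcripts differ between them while both are still hyperplastic. In whole glands, fewer cells of a type and less RNA per cell cannot be told apart. The labels do not say whether the samples came from separate mice, and the titles of 4 PN1b samples have the form of a range of numbers, so p-values cover only how far these samples vary.

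A dividing cell passes from G1 into S phase when D and E cyclins with their kinases inactivate the retinoblastoma proteins and release E2F factors, which switch on the genes for copying DNA. Genes of mitosis are switched on later, in G2, and their transcripts are therefore used as a measure of how many cells of a tissue are cycling. In the mammary gland, cycling cells are mainly epithelial, and cells without p53 lack one of the main brakes on entry into S phase.

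Log2 intensities were compared between PN1a and PN1b with limma over all probe sets, and a probe set was called at an adjusted p under 0.05 with a fold change of at least 1.5. Of the 51 genes, 1 was called higher in PN1a, the mitotic spindle gene Spag5, beside 0.869% of all probe sets, and 0 were called lower, beside 1.62% of all probe sets. At an unadjusted p under 0.05, limma gave 6 of the genes as higher (7.65% of all probe sets) and 2 as lower (11.3% of all probe sets). The log2 fold change was above 0 in 42 of the 51 genes, with a median of 0.31, beside 48.6% of all probe sets and a median of -0.01. Spag5 and the importin gene Kpna2 were the 2 genes in which every PN1a sample lay above every PN1b sample (1.58% of all probe sets), and by the brightest probe set in no gene did every PN1a sample lie below (2.38%). The methods' t-test, at an unadjusted p under 0.01 with the same fold change, gave Spag5 and Kpna2 as higher (2.18% of all probe sets) and Cdk2 as lower (3.56%).

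These differences lay mostly in PN1a 1 and PN1a 2, the PN1a samples whose titles are plain numbers. Both were above the other 9 samples in 23 of the 51 genes, beside 8.84% of all probe sets. PN1a 2 was the highest of the 11 samples in 31 of the genes, beside 16.2% of all probe sets, and PN1a 1 was the highest in 7, near its share of 13.7% of all probe sets. Without PN1a 1 and PN1a 2 the median of the 51 genes was -0.05, 22 of them were above 0 (46.8% of all probe sets), 0 were called higher (0.684%) and 1, the primase gene Prim1, was called lower (0.66%). In that comparison limma gave 2 genes at an unadjusted p under 0.05 as higher (7.07% of all probe sets) and 4 as lower (9.02%).

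**Figure D1:**
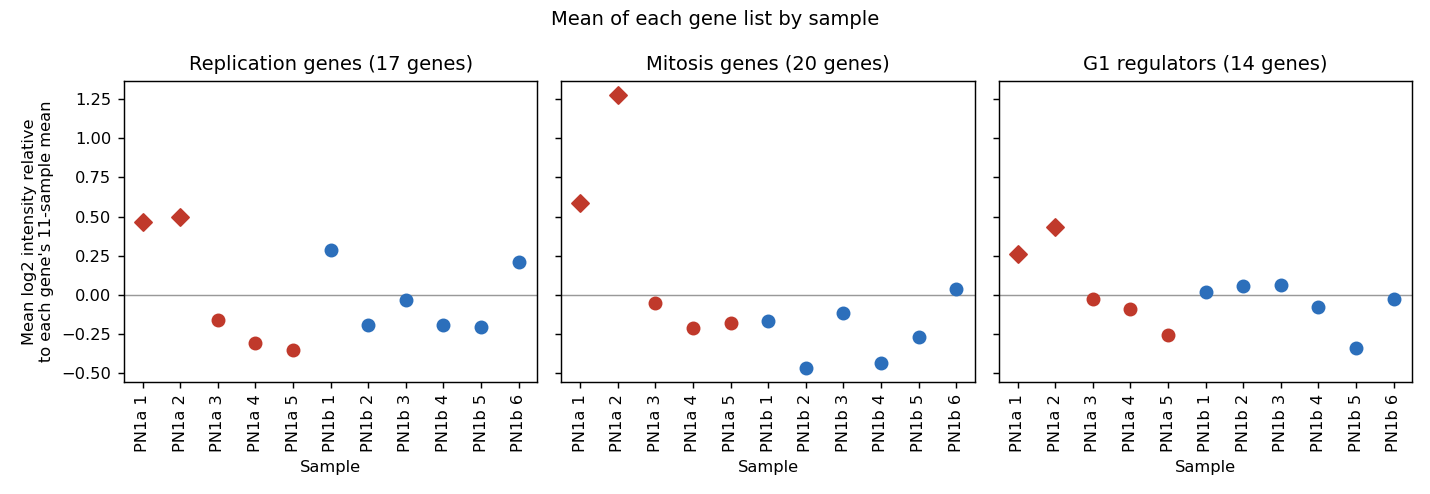
Mean log2 intensity of the replication, mitosis and G1 genes in each sample, relative to each gene's mean over the 11 samples. Red points are PN1a, with diamonds for PN1a 1 and PN1a 2, and blue points are PN1b. The diamonds lie highest for all 3 lists, and for mitosis genes at 0.59 and 1.28 against 0.04 or lower in every other sample.

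The lists differed in how far PN1a 1 and PN1a 2 stood out. For mitosis genes the mean relative to the 11 samples was 0.59 in PN1a 1 and 1.28 in PN1a 2, and it ran from -0.21 to -0.05 in PN1a 3 to 5 and from -0.47 to 0.04 in PN1b. For replication genes it was 0.46 and 0.50, against -0.35 to -0.16 in PN1a 3 to 5 and -0.21 to 0.29 in PN1b. For G1 regulators it was 0.26 and 0.43, against -0.26 to -0.03 and -0.34 to 0.06. PN1a 3 to 5 thus lay inside the PN1b range for mitosis genes and G1 regulators, and 2 of them lay below it for replication genes.

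**Figure D2:**
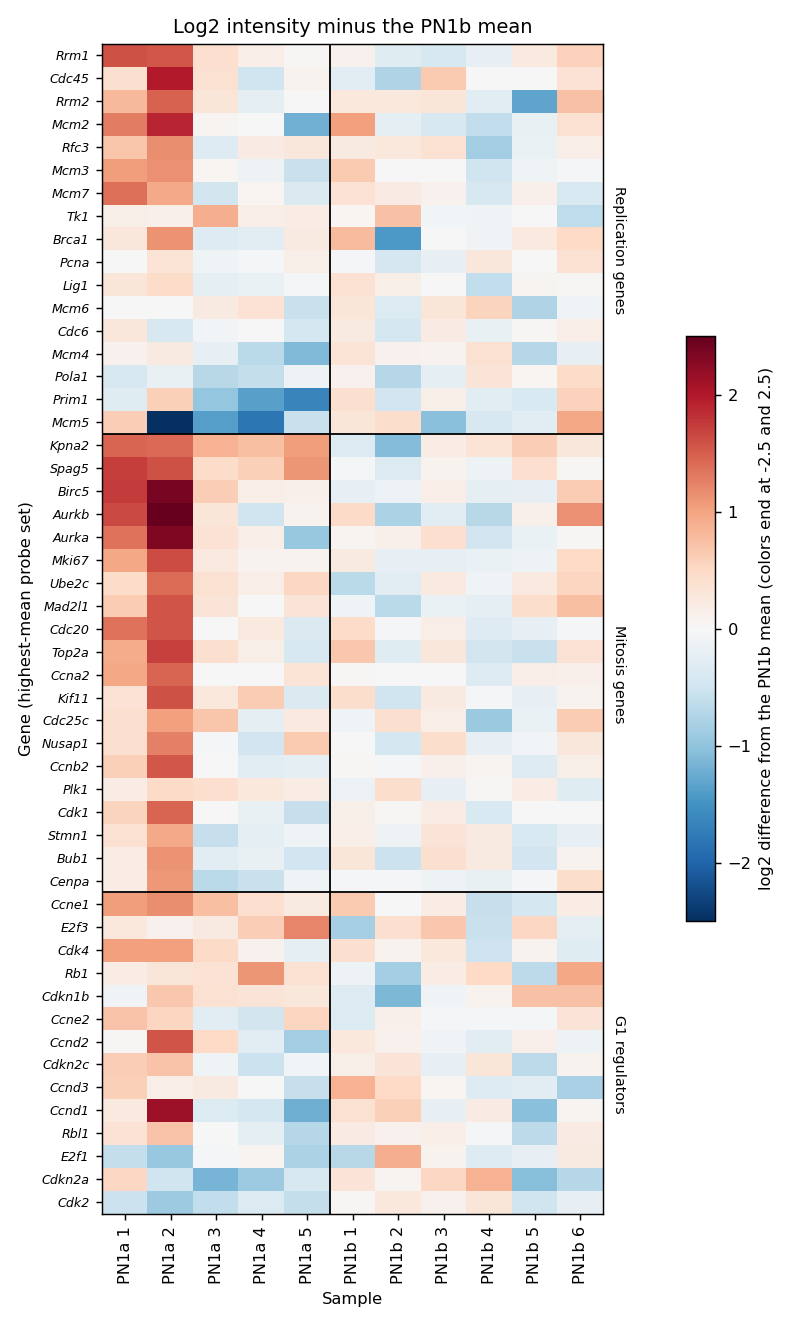
Log2 intensity of each gene in each sample minus the mean of the 6 PN1b samples, with genes ordered within each list by their fold change and colors that end at -2.5 and 2.5. The red columns of PN1a 1 and PN1a 2 run through most mitosis genes and part of the replication genes, and PN1a 3 to 5 are close to PN1b in many genes. For Spag5, Kpna2 and Prim1 all of PN1a 3 to 5 lie outside the PN1b range.

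Other measures also differed in PN1a 1, PN1a 2 or both. The 3 probe sets for 18S ribosomal RNA read no more than 32.7 in 9 samples, with a lowest value of 3.07, but 119 to 195 in PN1a 1 and 132 to 276 in PN1a 2, and the immediate early gene Fos read 4.02 and 3.87 on the log2 scale against 7.94 to 9.29. For 12 mammary epithelial markers the summed intensity came to 324 in PN1a 1 and to 1595 in PN1a 2, against 1848 to 2583 in PN1a 3 to 5 and 1814 to 2351 in PN1b. That of 9 endothelial markers was 251 and 115, against 353 to 413 and 282 to 417, and that of 8 adipocyte markers 60.8 and 61.5, against 131 to 173 and 211 to 268. That of 9 fibroblast markers was 2361 and 741, against 2744 to 2913 and 1998 to 3372. That of 12 macrophage markers was 1417 and 829, against 963 to 1158 and 311 to 906. By these sums PN1a 1 lay inside the PN1b range for fibroblast markers and PN1a 2 for macrophage markers. By the mean relative to the 11 samples, fibroblast markers were at -0.26 in PN1a 1, below PN1b (-0.16 to 0.61). Macrophage markers were then at 0.49 in PN1a 2, above PN1b (-1.37 to -0.05). Epithelial markers were then at 0.02 in PN1a 2, inside the PN1b range (-0.18 to 0.45). Both measures placed PN1a 1 and PN1a 2 alike against PN1b in the other cases. Of these markers, 1 adipocyte marker in PN1a 1 was listed at the lowest value and no other in any sample. The luminal keratins Krt8 and Krt18 read from 5.72 to 9.36 and from 6.19 to 9.87 on the log2 scale, both lowest in PN1a 1, and the basal keratin Krt14 read 0.01 to 2.15 in the 11 samples, near the lowest value. The part of tissue makeup and RNA quality in the cell cycle values was not tested.

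Among the 20 mitosis genes the log2 fold change was above 0 in 19 and ran from -0.01 for Cenpa, the histone of the centromere, to 1.11 for Kpna2. The median was 0.56 with all samples, 0.08 without PN1a 1 and PN1a 2, when 12 genes were above 0, and 0.39 among the samples of a shared title ending, which are all PN1a samples with PN1b 5 and PN1b 6. Without PN1a 2 alone it was 0.27. PN1a 2 was the highest of the 11 samples in 18 of the genes and PN1a 1 in the other 2, Kpna2 and Spag5. PN1a 1 and PN1a 2 were both above PN1a 3 to 5 in 15 of the 20 genes, beside 20.1% of all probe sets, and both above all other 9 samples in 12. The median SD of a mitosis gene was 0.67 in PN1a, 0.29 in PN1a 3 to 5 and 0.31 in PN1b.

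Spag5 encodes astrin, a protein that binds spindle microtubules and helps chromosomes line up before they part. Its log2 intensity was 2.46, 2.33, 1.19, 1.33 and 1.84 in PN1a 1 to 5, and 0.39 at the lowest, 0.73 at the median and 1.15 at the highest in PN1b. The groups did not overlap, but PN1a 3 exceeded the highest PN1b sample by little. The means were 1.83 ± 0.57 (SD, n = 5) and 0.74 ± 0.25 (SD, n = 6), which gave a log2 difference of 1.09 (SE 0.25, adjusted p = 0.0393 in limma), or 2.13-fold. Without PN1a 1 and PN1a 2 the log2 fold change was 0.72 (adjusted p = 0.148 in limma). The probe set was dim, since only 13.3% of probe sets had a lower mean, and with 16 added to each intensity the adjusted p was 0.105 in limma. The call was also lost without PN1a 1, PN1a 2, PN1a 5, or any PN1b sample but PN1b 5, with an adjusted p of 0.0299 to 0.0929 over the single leave-outs in limma.

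Kpna2 encodes an importin that carries proteins into the nucleus, and its transcript is known to rise in dividing cells. Its log2 intensity was 4.0, 3.97, 3.42, 3.30 and 3.60 in PN1a 1 to 5 and 1.46, 2.78 and 3.17 at the lowest, median and highest in PN1b. All PN1a samples lay above all PN1b samples, with PN1b 2 the lowest by far. Their difference on the log2 scale was 1.11 (SE 0.29, adjusted p = 0.0586 in limma), which missed the threshold, and it was 0.89 (adjusted p = 0.222 in limma) without PN1a 1 and PN1a 2. Over the single leave-outs the adjusted p in limma ran from 0.0344, without PN1b 5, to 0.129. With each sample centred on its median it was 0.0490 in limma.

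Birc5 encodes survivin, which guides chromosome separation as part of the chromosomal passenger complex and blocks cell death. It read 5.15, 5.78, 4.02, 3.56 and 3.53 on the log2 scale in PN1a 1 to 5, and 3.18, 3.23 and 4.03 at the lowest, median and highest in PN1b. Only PN1a 1 and PN1a 2 stood above the PN1b range. The log2 difference between the groups was 1.01 (SE 0.38, adjusted p = 0.174 in limma) with all samples and 0.30 (adjusted p = 0.584 in limma) without those 2.

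Mki67, the gene of the proliferation antigen Ki-67, showed the same shape. Mki67 read 5.80, 6.47, 5.07, 4.92 and 4.92 on the log2 scale in PN1a 1 to 5, against 4.62, 4.69 and 5.33 at the lowest, median and highest in PN1b. PN1a 3 to 5 lay inside the PN1b range. With all samples the log2 fold change was 0.60 (SE 0.29, adjusted p = 0.276 in limma) and 0.14 (adjusted p = 0.800 in limma) without PN1a 1 and PN1a 2, and the dimmer probe set for Mki67 gave -0.21.

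Top2a encodes the topoisomerase that untangles DNA before chromosomes separate. It read 4.24, 5.02, 3.71, 3.45 and 2.90 on the log2 scale in PN1a 1 to 5 and 2.75, 3.30 and 3.99 at the lowest, median and highest in PN1b. Again PN1a 1 and PN1a 2 alone lay above PN1b. For Top2a the log2 fold change was 0.56 (SE 0.36, adjusted p = 0.430 in limma), and without both samples it was 0.04 (adjusted p = 0.960 in limma).

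The other 15 mitosis genes did not pass the test, and in 7 of them PN1a 1 and PN1a 2 were both above the other 9 samples. Aurka, the spindle pole kinase, read 3.52 and 4.51 on the log2 scale in PN1a 1 and PN1a 2, and no more than 2.59 in the other samples. Aurkb, the kinase partner of survivin, had a log2 fold change of 0.86 with all samples and of -0.03 without PN1a 1 and PN1a 2. The cyclin genes Ccna2 and Ccnb2 had 0.56 and 0.33 with all samples, and 0.12 and -0.18 without them. Cdk1, the kinase that drives entry into mitosis, had 0.25 and -0.26, and Cdc20, an activator of the anaphase-promoting complex, had 0.56 and -0.04. Ube2c, the ubiquitin-conjugating enzyme of that complex, had 0.59 and 0.36 and was the only one of the 15 at an unadjusted p under 0.05 in limma.

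Probe sets of 1 gene differed in places. Of 17 genes with more than 1 probe set, 7 had log2 fold changes on both sides of 0, namely Mcm3, Mcm5, Mki67, Bub1, Stmn1, E2f1 and Rb1. For Stmn1, which destabilizes microtubules, the brighter probe set gave 0.09 and the dimmer one -0.63 (adjusted p = 0.0737 in limma), with every PN1a sample (2.37 to 2.84) below every PN1b sample (2.98 to 3.54). The dimmer probe set of Nusap1, a protein that bundles spindle microtubules, gave 0.91 (adjusted p = 0.0773 in limma) and the brighter one 0.36, and the dimmer one was called without PN1b 5. None of the 19 probe sets left out of the summaries was called by limma with all samples.

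**Figure D3:**
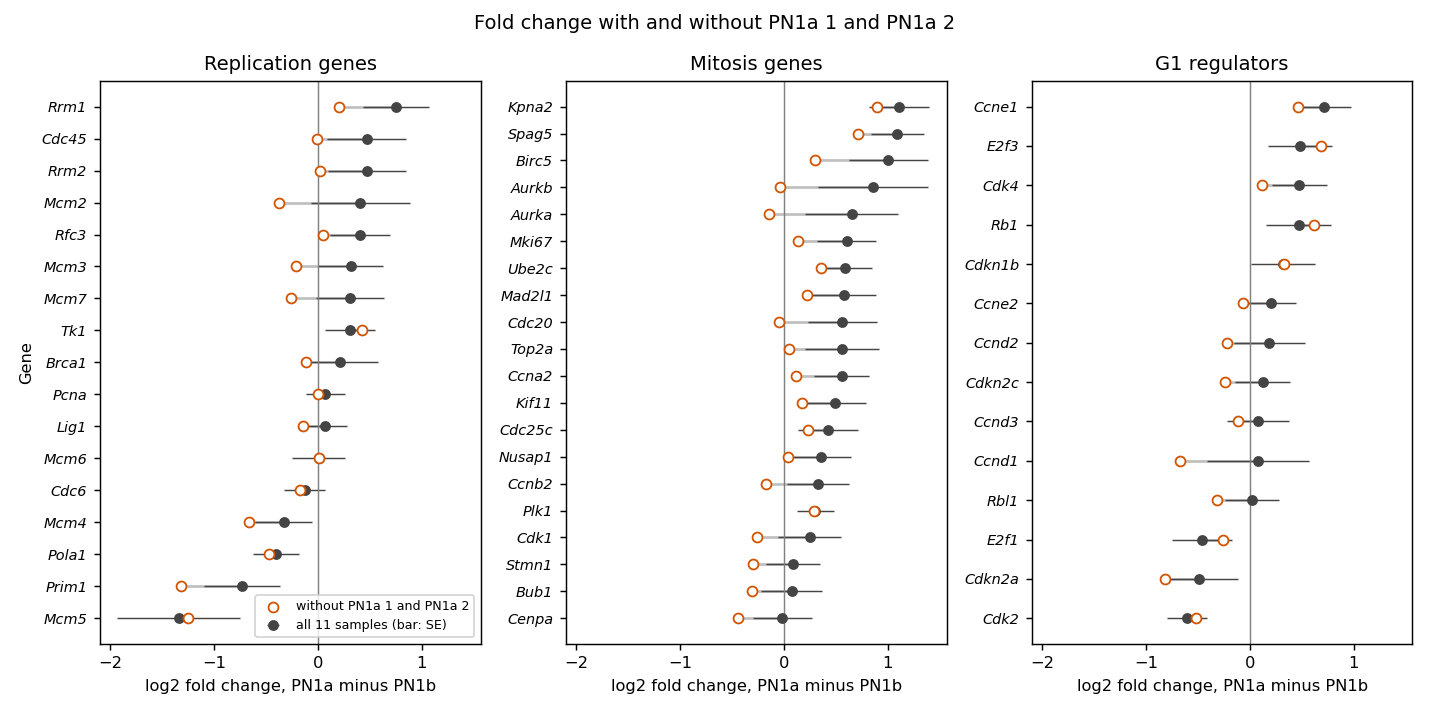
Log2 fold change, PN1a minus PN1b, of each gene with all 11 samples (filled points, bars for the SE) and without PN1a 1 and PN1a 2 (open points). Most open points lie left of the filled ones, and the median moves from 0.56 to 0.08 for mitosis genes, from 0.21 to -0.14 for replication genes and from 0.16 to -0.17 for G1 regulators.

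Because the mitosis genes were high in the same samples, the RefSeq promoter windows of the members were searched for letters known from cell cycle promoters. A window has 300 bases, 250 before the start of transcription and 50 after it, in build GRCm38.p6, and 42 of the 51 measured genes had at least 1. Transcription in G2 and M phase is known to depend on the cell cycle homology region (TTTGAA or TTCGAA here) and on CCAAT boxes, and that in S phase on E2F elements (TTTNNCGC here, where N is any base). All were searched on both strands, and matches may overlap. The 6 windows shown are of Spag5 and Kpna2, the genes whose groups did not overlap, of the proliferation markers Mki67 and Top2a, of Cdk1, the single mitosis gene with an E2F-like match, and of the replication gene Mcm5, for contrast. Capitals mark the matches, and each sequence is written 5′ to 3′ along its gene.
Spag5, chr11:78301341-78301640, plus strand: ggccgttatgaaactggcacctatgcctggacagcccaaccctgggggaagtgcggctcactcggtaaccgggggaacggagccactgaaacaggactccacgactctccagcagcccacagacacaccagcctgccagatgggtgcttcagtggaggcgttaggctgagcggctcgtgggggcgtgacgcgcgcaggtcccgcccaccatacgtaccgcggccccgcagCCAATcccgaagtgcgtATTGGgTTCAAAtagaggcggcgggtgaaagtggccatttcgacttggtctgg
Kpna2, chr11:106999476-106999775, minus strand: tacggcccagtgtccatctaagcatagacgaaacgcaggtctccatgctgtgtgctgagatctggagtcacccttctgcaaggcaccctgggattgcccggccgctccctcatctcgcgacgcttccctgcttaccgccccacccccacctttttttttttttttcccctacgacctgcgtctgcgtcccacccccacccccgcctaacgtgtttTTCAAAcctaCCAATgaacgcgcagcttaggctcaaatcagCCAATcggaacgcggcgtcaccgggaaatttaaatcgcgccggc
Mki67, chr7:135716330-135716629, minus strand: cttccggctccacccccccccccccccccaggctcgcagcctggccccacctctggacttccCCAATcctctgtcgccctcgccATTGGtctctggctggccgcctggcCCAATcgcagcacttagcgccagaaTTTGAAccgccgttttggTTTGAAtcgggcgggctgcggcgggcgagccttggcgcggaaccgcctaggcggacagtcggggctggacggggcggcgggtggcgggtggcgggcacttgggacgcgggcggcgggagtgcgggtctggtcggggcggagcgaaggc
Top2a, chr11:99024140-99024439, minus strand: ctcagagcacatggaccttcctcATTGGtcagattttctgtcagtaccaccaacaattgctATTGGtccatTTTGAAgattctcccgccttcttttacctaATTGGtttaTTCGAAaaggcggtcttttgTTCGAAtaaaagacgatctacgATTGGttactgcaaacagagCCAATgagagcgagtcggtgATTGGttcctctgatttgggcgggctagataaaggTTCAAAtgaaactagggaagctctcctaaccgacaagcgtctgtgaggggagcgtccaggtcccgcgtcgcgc
Cdk1, chr10:69352863-69353162, minus strand: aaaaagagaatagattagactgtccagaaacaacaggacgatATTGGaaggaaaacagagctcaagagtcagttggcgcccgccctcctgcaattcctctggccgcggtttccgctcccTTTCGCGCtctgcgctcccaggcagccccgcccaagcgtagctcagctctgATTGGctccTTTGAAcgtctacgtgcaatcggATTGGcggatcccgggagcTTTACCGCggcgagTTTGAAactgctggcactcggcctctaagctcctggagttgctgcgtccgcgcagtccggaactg
Mcm5, chr8:75109259-75109558, plus strand: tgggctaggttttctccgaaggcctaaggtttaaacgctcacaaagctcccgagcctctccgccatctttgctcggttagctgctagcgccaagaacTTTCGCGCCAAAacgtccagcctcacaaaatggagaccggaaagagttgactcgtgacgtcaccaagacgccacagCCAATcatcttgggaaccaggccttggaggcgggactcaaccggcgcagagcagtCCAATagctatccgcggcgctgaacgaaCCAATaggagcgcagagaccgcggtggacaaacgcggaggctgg

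The window of Spag5 holds a pair of CCAAT boxes, one read on the opposite strand as ATTGG, followed by TTCAAA, which is the cell cycle homology region read on the opposite strand. Top2a has the most matches of the 6, with 4 of the cell cycle homology region and 6 CCAAT boxes, while Mcm5 has 0 of the former, 3 CCAAT boxes and 2 overlapping E2F-like matches. The letters of the cell cycle homology region were found in 13 of 16 windows of mitosis genes, in 4 of 19 of replication genes and in 1 of 14 of G1 regulators. Of all 32851 windows searched, 6316 held them (19.2%). CCAAT was found in 13 of 16, 14 of 19 and 6 of 14, beside 37.4% of all windows. E2F-like letters were found in 1 of 16, 8 of 19 and 5 of 14, beside 5.17% of all windows. The mitosis genes without the cell cycle homology region in their window were Birc5, Mad2l1 and Nusap1. A match describes the letters of a window and is neither a shown binding site nor a cause of the values.

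**Figure D4:**
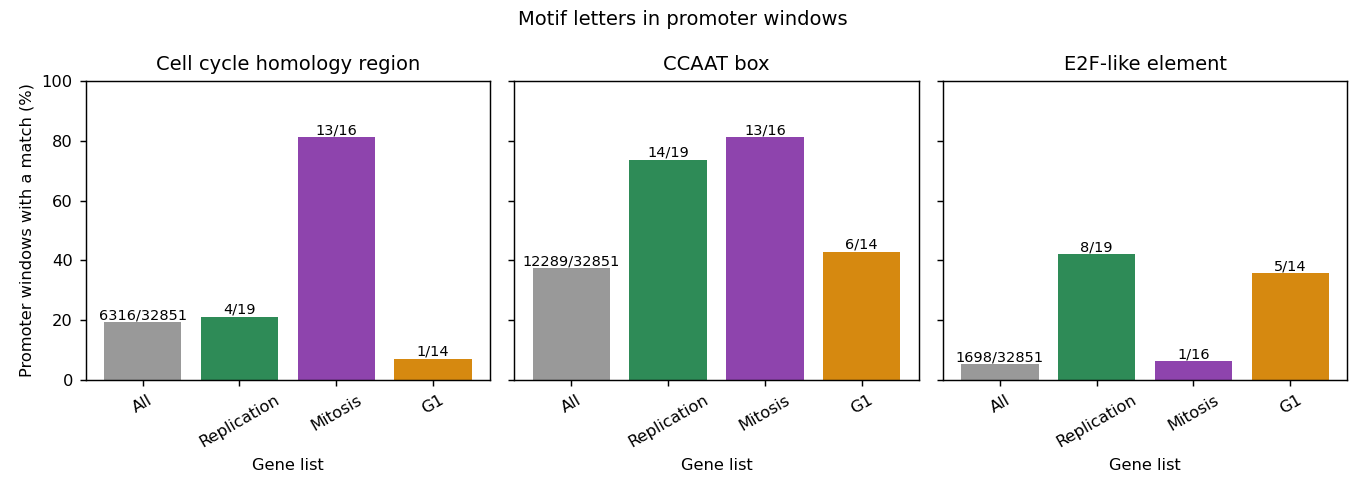
Percent of RefSeq promoter windows of 300 bases that hold the letters of the cell cycle homology region, a CCAAT box or an E2F-like element. Bars are for all windows searched and for the 3 lists, with the counts of windows above them. The cell cycle homology region was found in 13 of 16 windows of mitosis genes and in 4 of 19 of replication genes.

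Among the 17 replication genes 0 were called by limma with all samples, beside 0.869% of all probe sets called higher and 1.62% lower. At an unadjusted p under 0.05 in limma, 1 was higher (Rrm1, beside 7.65% of all probe sets) and 1 lower (Mcm5, beside 11.3%). The log2 fold change was above 0 in 12 of the genes. Log2 fold changes ran from -1.34 to 0.75, with a median of 0.21. Without PN1a 1 and PN1a 2 the median was -0.14, and 5 genes were above 0, and without PN1a 2 alone the median was 0.01. Both samples were above the other 9 in 6 of the 17 genes, among them the helicase genes Mcm2, Mcm3 and Mcm7 and both ribonucleotide reductase genes, Rrm1 and Rrm2. The sixth was Rfc3, a subunit of the clamp loader.

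Rrm1 encodes the large subunit of ribonucleotide reductase, which makes the building blocks of DNA. In PN1a 1 to 5 its log2 intensity was 6.05, 6.00, 4.87, 4.61 and 4.49, and in PN1b 4.06, 4.40 and 5.02 at the lowest, median and highest. PN1a 1 and PN1a 2 were alike and apart from all other samples. For Rrm1 the log2 fold change was 0.75 (SE 0.32, adjusted p = 0.222 in limma), and 0.20 (adjusted p = 0.729 in limma) without both samples.

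Mcm5, a subunit of the helicase that opens DNA at origins, had the widest spread of the replication genes. Mcm5 read 6.91, 2.73, 4.92, 4.49 and 5.74 on the log2 scale in PN1a 1 to 5, and 5.26, 6.32 and 7.26 at the lowest, median and highest in PN1b. Here PN1a 1 and PN1a 2 lay at opposite ends of the PN1a range. For Mcm5 the log2 fold change was -1.34 (SE 0.59, adjusted p = 0.241 in limma), and -1.25 (adjusted p = 0.176 in limma) without PN1a 1 and PN1a 2, while its dimmer probe set gave 0.23. Of the 6 Mcm genes, 4 were above 0 with all samples and 1 without PN1a 1 and PN1a 2.

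Prim1 encodes the catalytic subunit of primase, which lays the RNA primers for new DNA strands. Its log2 intensity was 3.04, 3.94, 2.38, 1.99 and 1.70 in PN1a 1 to 5 and 2.87, 3.29 and 3.93 at the lowest, median and highest in PN1b. PN1a 3 to 5 lay below all PN1b samples, and PN1a 1 and PN1a 2 did not. For Prim1 the log2 fold change was -0.74 (SE 0.37, adjusted p = 0.298 in limma) with all samples and -1.32 (SE 0.28, adjusted p = 0.0421 in limma) without PN1a 1 and PN1a 2, where Prim1 was called lower. Among samples of the shared title ending without PN1a 1 and PN1a 2 it was -1.42 (adjusted p = 0.379 in limma), with 3 PN1a and 2 PN1b samples.

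Pcna encodes the sliding clamp that holds the polymerase on DNA, and its levels were close in all samples. It read 6.75, 7.08, 6.64, 6.69 and 6.88 on the log2 scale in PN1a 1 to 5, and 6.32, 6.72 and 7.12 at the lowest, median and highest in PN1b. All PN1a values lay inside the PN1b range. For Pcna the log2 fold change was 0.07 (SE 0.19, adjusted p = 0.881 in limma), and 0.00 without PN1a 1 and PN1a 2.

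The remaining 13 replication genes did not pass the test. Mcm2 read 4.81 and 5.44 on the log2 scale in PN1a 1 and PN1a 2 and 2.34 to 4.57 in the other samples, and its log2 fold change was 0.41 with all samples and -0.38 without these. Lig1, the ligase that joins fragments of the lagging strand, had 0.07, and Pola1, the polymerase that extends primers, had -0.40 with all samples. Tk1, the thymidine kinase, had 0.31 in its brighter probe set and 0.93 in the dimmer one, in which PN1a 1 and PN1a 2 were again above the other 9 samples. Cdc6, Mcm6 and Brca1 were dim, with log2 values of 3 or less in every sample.

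**Figure D5:**
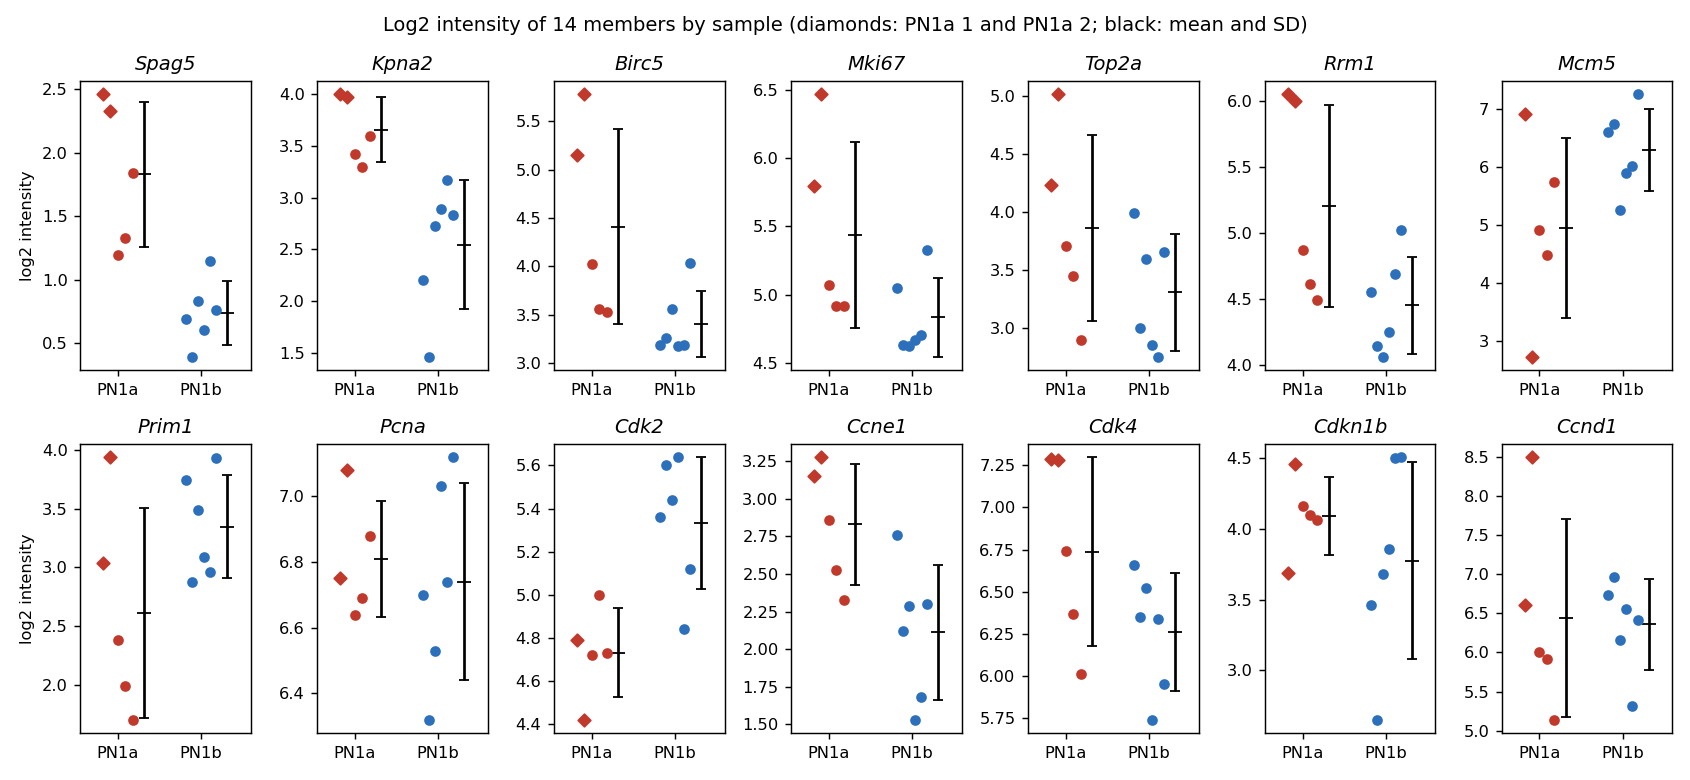
Log2 intensity of 14 genes in each sample, PN1a in red with diamonds for PN1a 1 and PN1a 2, PN1b in blue, and the mean with SD in black. The groups are apart only for Spag5 and Kpna2, and the diamonds lie above all other points for Birc5, Mki67, Top2a, Rrm1, Ccne1 and Cdk4 as well.

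Among the 14 G1 regulators log2 fold changes ran from -0.60 to 0.72, with a median of 0.16, or -0.17 without PN1a 1 and PN1a 2, and 0.02 without PN1a 2 alone. None was called by limma, beside 0.869% of all probe sets called higher and 1.62% lower. At an unadjusted p under 0.05 in limma, 1 was higher (7.65% of all probe sets) and 1 lower (11.3%). Above 0 were 11 genes with all samples and 5 without PN1a 1 and PN1a 2. PN1a 1 and PN1a 2 were above the other 9 samples in 5 of the 14 genes, Ccne1, Ccne2, Cdk4, Cdkn2c and Rbl1.

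Cdk2, the kinase that works with cyclin E at the start of S phase, was the lower one. Its log2 intensity was 4.79, 4.42, 4.72, 5.00 and 4.73 in PN1a 1 to 5, against 4.84, 5.40 and 5.64 at the lowest, median and highest in PN1b. The groups overlapped through PN1a 4 and PN1b 5. For Cdk2 the log2 fold change was -0.60 (SE 0.19, adjusted p = 0.111 in limma) and -0.52 (adjusted p = 0.272 in limma) without PN1a 1 and PN1a 2, and the dimmer probe set gave -0.04.

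Ccne1, which encodes cyclin E1, the partner of that kinase, was the higher one. It read 3.15, 3.28, 2.86, 2.53 and 2.33 on the log2 scale in PN1a 1 to 5 and 1.53, 2.21 and 2.76 at the lowest, median and highest in PN1b. The groups overlapped through PN1a 4 and PN1a 5. For Ccne1 the log2 fold change was 0.72 (SE 0.25, adjusted p = 0.144 in limma), and 0.46 (adjusted p = 0.447 in limma) without PN1a 1 and PN1a 2.

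Cdk4, the kinase of the D cyclins, read 7.29, 7.28, 6.74, 6.37 and 6.01 on the log2 scale in PN1a 1 to 5, against 5.74, 6.35 and 6.66 at the lowest, median and highest in PN1b. PN1a 3 was also above the PN1b range. Its log2 fold change was 0.48 (SE 0.27, adjusted p = 0.358 in limma), and 0.11 without PN1a 1 and PN1a 2. The dimmer probe set of Cdk4 gave 0.53 with all samples.

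Ccnd1 encodes cyclin D1, which is needed for growth of the mammary epithelium and is often amplified in breast cancer. Its log2 intensity was 6.61, 8.50, 6.01, 5.92 and 5.14 in PN1a 1 to 5 and 5.31, 6.49 and 6.96 at the lowest, median and highest in PN1b. Only PN1a 2 was above the PN1b range, and the log2 fold change was 0.08 (SE 0.49, adjusted p = 0.952 in limma) with all samples and -0.67 (adjusted p = 0.373 in limma) without PN1a 1 and PN1a 2. In the dimmer probe set PN1a 2 was also the highest, at 6.02, and PN1a 1 came next at 4.63, against 3.30 to 3.90 in the other samples. That probe set gave a log2 fold change of 0.41 with all samples and -0.35 without PN1a 1 and PN1a 2.

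Cdkn1b encodes p27, an inhibitor of cyclin E with its kinase. It read 3.69, 4.46, 4.16, 4.10 and 4.06 on the log2 scale in PN1a 1 to 5, and 2.65, 3.77 and 4.51 at the lowest, median and highest in PN1b. PN1a lay inside the PN1b range. The log2 fold change was 0.32 (SE 0.31, adjusted p = 0.630 in limma), and 0.33 without PN1a 1 and PN1a 2. Of the other inhibitors, Cdkn2a, the locus of p16 and p19ARF, had -0.49 and Cdkn2c, which encodes p18, had 0.12.

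The titles end in 1 of 3 ways whose meaning is not given. All 5 PN1a samples and PN1b 5 and 6 share an ending, and the other 4 PN1b samples have endings that no PN1a sample has. Within the shared ending 0 member genes were called by limma, beside 6 of all 12422 probe sets called higher and 12 lower. The median log2 fold change was 0.39 for mitosis genes, 0.28 for replication genes and 0.33 for G1 regulators. With the ending as a block the estimates were the same, because the other endings hold PN1b alone. Spag5 was then at 0.88 (adjusted p = 0.476 in limma) and Kpna2 at 0.66 (adjusted p = 0.493 in limma). Of the 51 member genes, 6 changed the sign of their fold change. Among them, Cdkn1b turned to -0.41, Cdkn2a went from -0.49 to 0.40, and Mad2l1, a checkpoint protein of the spindle, went from 0.57 to -0.03. Only 2 PN1b samples stand against PN1a there, and without PN1a 1 and PN1a 2 as well the median was -0.04 for mitosis genes and -0.20 for replication genes.

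Other genes of the same pathways were read from 3 further lists. Of 41 measured further replication genes 0 were called by limma, beside 0.869% of all probe sets called higher and 1.62% lower. At an unadjusted p under 0.05 in limma, 5 were higher (7.65% of all probe sets) and 4 lower (11.3%). The median log2 fold change was -0.02, with 17 genes above 0. Without PN1a 1 and PN1a 2 it was -0.27, with 8 genes above 0. The smallest adjusted p belonged to Rfc1, the large subunit of the clamp loader, at -0.99 (adjusted p = 0.0769 in limma), to Cdc7, a kinase that fires origins, at -0.88 (adjusted p = 0.100), and to Dnmt1, the methyltransferase that copies DNA methylation, at -0.66 (adjusted p = 0.117). Rfc1 was called lower without PN1a 1 and PN1a 2, at -1.32 (adjusted p = 0.0251 in limma), and also without PN1a 1 or PN1b 5 alone. PN1a 1 and PN1a 2 were above the other 9 samples in 12 of the 41 genes.

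Of 43 measured further mitosis genes, 1 was called higher and 0 lower, beside 0.869% and 1.62% of all probe sets. At an unadjusted p under 0.05 in limma, 8 were higher (7.65% of all probe sets) and 1 lower (11.3%). The 1 called was Cdc16, which belongs to the anaphase-promoting complex. Cdc16 read 6.83, 6.25, 6.30, 5.95 and 5.80 on the log2 scale in PN1a 1 to 5, against 4.98, 5.28 and 5.59 at the lowest, median and highest in PN1b, without overlap. Its log2 fold change was 0.95 (SE 0.21, adjusted p = 0.0333 in limma), and 0.75 (adjusted p = 0.116) without PN1a 1 and PN1a 2, where it was not called. The adjusted p over the single leave-outs was 0.0257 to 0.0777 in limma. Cdc16 stayed called only without PN1a 4, PN1a 5 or PN1b 5, and the call was lost without any other single sample. With the title ending as a block the adjusted p was 0.235 in limma. The list had a median of 0.20, with 30 genes above 0. Without PN1a 1 and PN1a 2 the median was -0.14, with 20 genes above 0. Both samples were above the other 9 in 15 of the 43 genes, beside 8.84% of all probe sets. Next in order stood the checkpoint gene Bub3 at 0.74 (adjusted p = 0.0696 in limma), Racgap1, a regulator of cell division, at -1.15 (adjusted p = 0.102), and the motor protein gene Cenpe at 0.71 (adjusted p = 0.181). Without PN1a 1 and PN1a 2 Racgap1 was called lower, at -1.66 (adjusted p = 0.0178 in limma), and also without PN1a 2 alone.

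Of 26 measured further G1 and E2F regulators, 2 were called higher and 1 lower, beside 0.869% and 1.62% of all probe sets. At an unadjusted p under 0.05 in limma, 3 were higher (7.65% of all probe sets) and 6 lower (11.3%). The log2 fold change was above 0 in 7 of the 26 genes. The median was -0.39, or -0.21 without PN1a 1 and PN1a 2. The chromosome positions of Cdc16 and of the 2 called higher, Tfdp1 and Cul4a, were not compared, so these cannot be counted as independent results. Tfdp1, which encodes the DNA-binding partner of E2F, read 8.94, 8.88, 8.12, 7.28 and 7.46 on the log2 scale in PN1a 1 to 5 and 4.77, 5.15 and 5.49 at the lowest, median and highest in PN1b. Every PN1a sample was thus far above every PN1b sample, and the log2 fold change was 2.97 (SE 0.30, adjusted p = 0.000128 in limma), or 2.46 (adjusted p = 0.000300) without PN1a 1 and PN1a 2. Cul4a, the scaffold of a ubiquitin ligase that acts on replication factors, had 2.70 (SE 0.23, adjusted p = 2.7e-05 in limma) with all samples and 2.49 (adjusted p = 0.000405) without these. It read 7.28 to 8.15 in PN1a and 4.45 to 5.42 in PN1b. Both genes were called with the title ending as a block, at 3.01 for Tfdp1 (adjusted p = 0.0210 in limma) and 2.63 for Cul4a (adjusted p = 0.00322).

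Tob1, an antiproliferative gene, was the one called lower. It read 3.60, 3.25, 4.65, 5.17 and 4.76 on the log2 scale in PN1a 1 to 5, against 5.20, 6.02 and 6.37 at the lowest, median and highest in PN1b. PN1a 4 lay just under the lowest PN1b sample, and PN1a 1 and PN1a 2 were the lowest. The log2 fold change was -1.63 (SE 0.34, adjusted p = 0.0259 in limma), and -1.06 (adjusted p = 0.0811) without PN1a 1 and PN1a 2, where it was not called. The call was also lost without PN1a 1, PN1b 1, PN1b 3 or PN1b 4 and with the title ending as a block, where the adjusted p in limma was 0.435. The stress gene Gadd45b, at -2.47 (adjusted p = 0.0837 in limma), and the antiproliferative gene Btg2, at -1.68 (adjusted p = 0.100), were also lowest in PN1a 1 and PN1a 2, at 3.55 and 4.24 for Gadd45b against 7.41 or more in the other samples. Mnat1, a subunit of the kinase that activates cyclin-dependent kinases, had -0.40 (adjusted p = 0.199 in limma).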

How the data were processed

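The authors hybridized RNA of 5 PN1a and 6 PN1b samples to Affymetrix MG_U74Av2 arrays, processed them in dChip (PM-MM model, quantile normalization; version not given in the sources used here) and deposited 1 linear intensity value per probe set and sample, from 1 to 1938. The values were already background-corrected and normalized, so neither step was repeated from the arrays, and low intensities carry the error of the mismatch subtraction. Per-sample median intensities were 8.57 to 8.94 in PN1a and 8.88 to 9.51 in PN1b, 0.817% of values lay at the lowest, and Pearson's r between samples of a group was 0.857 to 0.962 and 0.919 to 0.966. At most 1.24% of values were identical between any pair of samples. Precision is limited by the number of arrays.

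Log2 was taken of the deposited intensities with no pseudocount, leaving out 66 control probe sets. Probe sets were named from the array's annotation, updated by gene identifier with the RefSeq table of GRCm38.p6 (10833 with 1 symbol, 396 with several, 1193 with none), and promoters are from RefSeq in that build. The comparison of PN1a with PN1b used limma 3.58.1 under R 4.3.3, as a two-sided moderated test by lmFit and eBayes without covariates and with Benjamini-Hochberg adjustment over all 12422 probe sets. Every adjusted p is from that fit, or from the same fit under the alternative named beside it, and the steps were tested on simulated data. Tables and figures were made with Python 3.11.15, pandas 2.3.3 and matplotlib 3.10.9.

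The members and lists were chosen with earlier results of these data known, and a table of the study that holds these samples and lists Cdk2, Nusap1 and Spag5 had been read. Lists are therefore described by counts and medians, with no test. Values by sample are given for called genes, genes whose groups did not overlap, the 3 genes of each member list with the smallest adjusted p, and Mki67, Top2a, Pcna, Ccnd1 and Cdkn1b; of the further lists, for called genes, with fold changes for the next 3. Other genes named as examples were picked after their values were seen. Alternatives were the methods' t-test, the title ending as a fixed or random block or the shared ending alone, samples left out singly or PN1a 1 and PN1a 2 together, quantile normalization repeated, centring, 16 added, a filter at the median, eBayes with trend and robust, other fold thresholds and averaged probe sets of a gene. Adding 1, and the shared ending without PN1a 1 and PN1a 2, were chosen after seeing the data.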

Additional observations from a re-analysis of the deposited data

Results flagged for a closer look

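In 6 of 102 groups tested (51 genes in PN1a and in PN1b) the highest or the lowest sample stood apart from the rest by Dixon's criterion, 3 in each line, and chance alone marks about 1 in 20 groups. Tk1 was at 3.31 on the log2 scale in PN1a 3, against 2.52 to 2.58 in the other PN1a samples. Ube2c was at 3.45 in PN1a 2, against 2.23 to 2.58, and Rb1, the retinoblastoma gene, at 4.56 in PN1a 4, against 3.64 to 3.83. In PN1b, Cdk1 was at 4.81 in PN1b 4, against 5.19 to 5.36 in the others, and Cenpa at 4.23 in PN1b 6, against 3.62 to 3.76. Rbl1, which encodes the retinoblastoma relative p107, was at 1.96 in PN1b 5, against 2.59 to 2.83.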

How the results depend on the processing

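No paired analysis was possible because the labels give no replicate numbers shared by the groups. Of the 51 member genes, 1 was called higher and 0 lower, and of all probe sets 108 and 201. Without PN1a 1 and PN1a 2, 0 member genes and member probe sets were higher and 1 lower, 2 further cell cycle genes were lower instead of 1, 82 probe sets were lower, and the medians were -0.14 for replication genes, 0.081 for mitosis genes and -0.17 for G1 regulators. With the shared title ending alone, 0 member genes or member probe sets were higher, further cell cycle genes gave 1 higher and 0 lower instead of 3 and 1, and probe sets gave 6 higher and 12 lower. Without PN1a 1 and PN1a 2 as well, these counts were 0, then 0 and 0, then 11 and 11, and the medians -0.20 for replication genes and -0.035 for mitosis genes. With the ending as a fixed block they were 0 members, 0 lower further genes and 12 and 19 probe sets, and as a random block 0 members and 58 and 104 probe sets. Centring, adding 1, and eBayes with trend and robust each gave 2 member genes and probe sets as higher. Adding 16 gave 0, with 65 probe sets higher. A filter at the median left 31 members, 0 of them higher, with 2 further genes and 303 probe sets lower. The methods' t-test at p under 0.01 gave 2 member genes higher and 1 lower, 3 member probe sets higher and 2 lower, 3 further genes lower, and 271 and 442 probe sets; after Benjamini-Hochberg adjustment it gave 0 members, 0 lower further genes, and 50 and 95 probe sets. With a gene's probe sets averaged, 0 further genes were lower. Centring also moved the share of higher calls from 35.0% to 45.5% (155 higher, 186 lower).

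Leaving out single samples gave 0 to 2 member genes, 0 to 3 member probe sets and 2 to 3 further genes as higher, and 0 to 3 further genes as lower. Probe sets ran from 44 to 182 higher and from 79 to 377 lower, and the medians from 0.01 to 0.33 for replication genes, from 0.27 to 0.65 for mitosis genes and from 0.02 to 0.30 for G1 regulators, lowest in each list without PN1a 2. The counts of probe sets were highest without PN1b 5 and lowest without PN1b 3 for higher and PN1b 1 for lower calls. No called member changed direction. Of the 51 genes, 20 changed the sign of their uncalled fold change without PN1a 1 and PN1a 2, and 0 to 9 without any single sample. Settings that leave out samples also have less power, and the cause of the other changes was not tested. Dim probe sets such as that of Spag5 are limited by the mismatch subtraction and the low signal.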
